A study of Mus musculus with 7 samples.

Results

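The genes that carry pyruvate into the mitochondrion, feed it to the pyruvate dehydrogenase (PDH) complex and run the tricarboxylic acid (TCA) cycle were examined in sorted mouse muscle cells. The members were a list of 33 symbols, of which 31 were found in the table of 23930 genes. Mpc1, a subunit of the mitochondrial pyruvate carrier, and Suclg2, the GTP-specific beta subunit of succinyl-CoA ligase, were not found under these symbols or their synonyms in the table used and were not analysed here. The 7 libraries came from Inducible Pax7-GFP mice on a C57 background, which carry a Cre recombinase at the Pax7 locus and a GFP reporter that is switched on by tamoxifen. The mice were 12 weeks old at the start, ate tamoxifen chow for 2 weeks, and were kept for 4 weeks in room air (normocapnia, libraries NC1 to NC3) or in 10% CO2 (hypercapnia, libraries HC1 to HC4). In both groups, per the study's methods, the tibialis anterior and gastrocnemius muscles were injured with cardiotoxin 3 days before collection at 16 weeks of age. All muscles of the hind legs were taken, and GFP-positive mononuclear cells were sorted. The sample labels do not mention the injury, and the name of the table gives a time in hours that differs from these 3 days, with no word on what it marks. The reporter marks cells that had expressed Pax7 at the time of induction, together with their progeny. The strain ending of the genotype label differs from library to library, whereas the growth notes speak of littermates of a single background. The labels do not say how many mice gave each library, so the p-values below measure the spread between these libraries.

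In aerobic metabolism, pyruvate from glycolysis crosses the inner mitochondrial membrane through the Mpc1 and Mpc2 carrier, and the PDH complex turns it into acetyl-CoA. PDH kinases phosphorylate the complex and slow it, and PDH phosphatases release this brake. Citrate synthase joins acetyl-CoA to oxaloacetate, and the cycle returns oxaloacetate while passing electrons to the respiratory chain. Satellite cells, the stem cells of skeletal muscle, are known to shift their use of glucose and of mitochondrial oxidation when they leave quiescence after injury, and macrophages are known to rewire the cycle when they are activated.

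Expression was measured by targeted RNA sequencing with a single amplicon per gene and given as reads per 1000000 reads of the library (RPM). Total reads per library ran from 14527445 (NC3) to 23388710 (NC2), so that 1 read was worth 0.0428 to 0.0688 RPM. Because each gene has its own amplicon, the level of a gene was compared between libraries and not with that of other genes, and the marker sums below serve only to follow each list from library to library. The sorted cells were checked against marker lists. The 12 satellite cell markers summed to 543 to 4284 RPM in normocapnia and 808 to 1649 RPM in hypercapnia. Sdc4 alone was at 429 to 781 RPM over the libraries, and gave 441 of the 543 RPM in NC3. The 12 macrophage markers, of which Lyz2 alone was at 8354 to 29108 RPM, summed to 12445 to 35162 RPM and 20310 to 25203 RPM. Pax7 itself lay between 4.34 RPM (NC3) and 268 RPM (NC1). Fibro-adipogenic markers summed to 1034 to 1767 RPM in normocapnia and 935 to 2230 RPM in hypercapnia, and myofiber markers to 135 to 2996 RPM and 283 to 1560 RPM. Endothelial markers summed to 88.2 to 232 RPM and 55.7 to 549 RPM, neutrophil markers to 65.4 to 219 RPM and 78.3 to 294 RPM, the 6 proliferation markers in the table to 43.0 to 420.1 RPM and 285 to 405 RPM, the 2 red blood cell markers in the table to 0.214 to 15.7 RPM and 0.301 to 5.56 RPM, and the 5 lymphocyte markers in the table to 0.482 to 2.54 RPM and 0.401 to 3.05 RPM. No marker in the table was at 0 in every library. Xist, the RNA of the inactive X chromosome, was at 445 to 701 RPM in NC1, NC2, HC1 and HC2 and at most 0.125 RPM in NC3, HC3 and HC4, and these last 3 libraries expressed the Y-linked gene Ddx3y at 103 to 206 RPM. The groups therefore hold 2 of 3 and 2 of 4 libraries with Xist.

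To place the results on the genes themselves, the promoters of the members were read from RefSeq (GRCm38.p6, 250 bases before to 50 after each start). Promoters were found for 30 members. The letters ACGTG, the core of the site bound by hypoxia-inducible factors and also part of many E-boxes, were searched on both strands, on which they read CACGT in reverse. They stood in the promoters of 9 of 30 members and of 21.8% of 27025 genes. The matching members were Pdhb, Pdk2, Pdk3, Pdp2, Idh3g, Ogdh, Mdh1, Me1 and Acly. The letters AAGGTCA, bound by estrogen-related receptors and read TGACCTT in reverse, stood in 1 member (Ogdh) of 30, or 3.33%, and in 5.38% of all genes. Stretches around the ACGTG match are shown for Ogdh, the member with the smallest p between the groups, and for Pdk2 and Idh3g, which are set beside a macrophage score below. Capitals mark the match, the sequences run 5′ to 3′ on the gene's own strand, and the match begins 109 bases before the start in Ogdh (chr11:6292021-6292105, plus strand), 125 before it in Pdk2 (chr11:95041452-95041536, minus strand) and 198 before it in Idh3g (chrX:73787051-73787135, minus strand). In Ogdh and Pdk2 the match sits in CACGTG, which reads the same on both strands. Ogdh has several annotated starts, and this window belongs to 1 of them.
Ogdh: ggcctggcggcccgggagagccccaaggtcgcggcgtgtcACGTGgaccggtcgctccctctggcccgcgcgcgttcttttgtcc
Pdk2: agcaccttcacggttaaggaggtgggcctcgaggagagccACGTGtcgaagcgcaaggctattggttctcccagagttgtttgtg
Idh3g: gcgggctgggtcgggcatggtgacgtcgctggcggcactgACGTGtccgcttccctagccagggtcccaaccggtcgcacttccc

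To determine whether hypercapnia was accompanied by a change in pyruvate entry or cycle genes, the groups were compared by limma on log2(RPM + 1). A gene was called when its unadjusted p was below 0.05 and its fold change above 1.5, the thresholds of the study. Of the 31 genes, 0 were called higher and 0 lower in hypercapnia, against 1.43% and 1.14% of all 23930 genes, or 2.66% and 2.1% of the 12504 genes whose mean over the libraries reached 1 RPM (expressed genes below). At an unadjusted p below 0.05 alone there was 1 member, Ogdh, against 4.66% of all genes. By edgeR's quasi-likelihood test on the reads recovered from the RPM values, Pdk2 was called lower (background 3.82%), and without a filter on low genes Dlst as well (background 2.99%). By DESeq2 the same genes, Pdk2 and Dlst, were called lower (background 3.28%). After Benjamini-Hochberg adjustment over all genes, no member passed 0.05 in any of these tools: the lowest adjusted p of a member was 0.915 in limma, 0.758 in edgeR with a filter, 0.725 in edgeR without one and 0.405 in DESeq2. Over the whole table no gene passed in limma or in edgeR with or without a filter, and 29 genes passed in DESeq2. None of the 31 members had groups that did not overlap, against 7.72% of expressed genes. In bulk samples, fewer cells of a type and less RNA per cell cannot be told apart, and this holds for each value below.

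The direction of the estimates was mixed. On the RPM scale 18 members had a positive log2 fold change (hypercapnia minus normocapnia) and 13 a negative one, with a median of 0.052 against 0.16 over all expressed genes. With median-of-ratios scaling the split was 12 against 19 and the medians were -0.090 and 0.045, so the sign of the members' median depended on the scale, and it lay below the median of expressed genes on both. Without NC3 it lay above it (-0.043 against -0.067), as it did in the 4 libraries with Xist (-0.10 against -0.17). The estimates ran from -0.96 (Pdk2) to 1.12 (Idh3a). Only Idh3a and Me1 had an estimate past 2-fold, and 7 members had one past 1.5-fold, 4 higher and 3 lower. The 95% interval of the difference lay within 1.5-fold on either side for 2 members, Pdk3 and Me2, and within 2-fold for 13. For the other 18 members the interval reached past 2-fold in at least 1 direction.

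**Figure D1:**
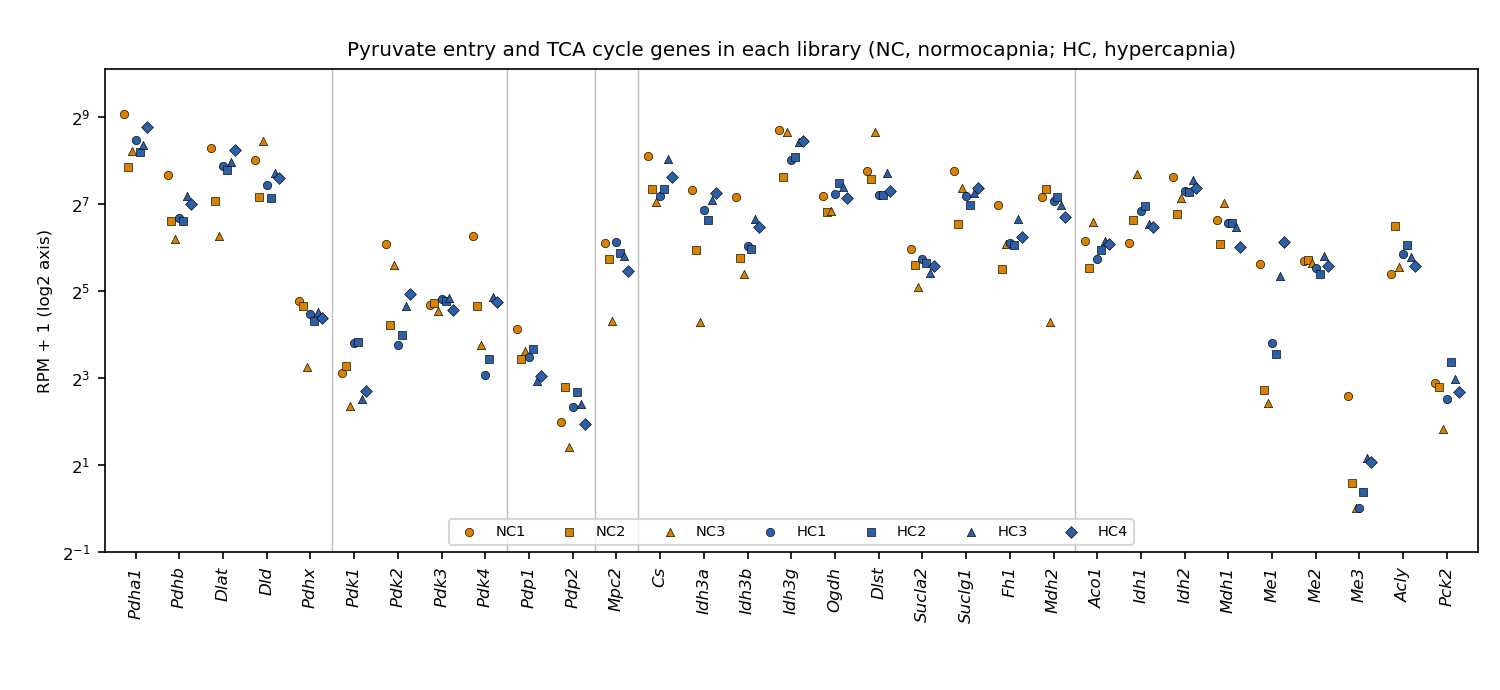
RPM + 1 on a log2 axis for the 31 genes in each library (orange, normocapnia; blue, hypercapnia; the marker shape gives the library, and grey lines separate the roles). In no gene do the 3 normocapnia points stand clear of the 4 hypercapnia points, and NC3 lies far below the others in Idh3a and Mdh2.

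**Figure D2:**
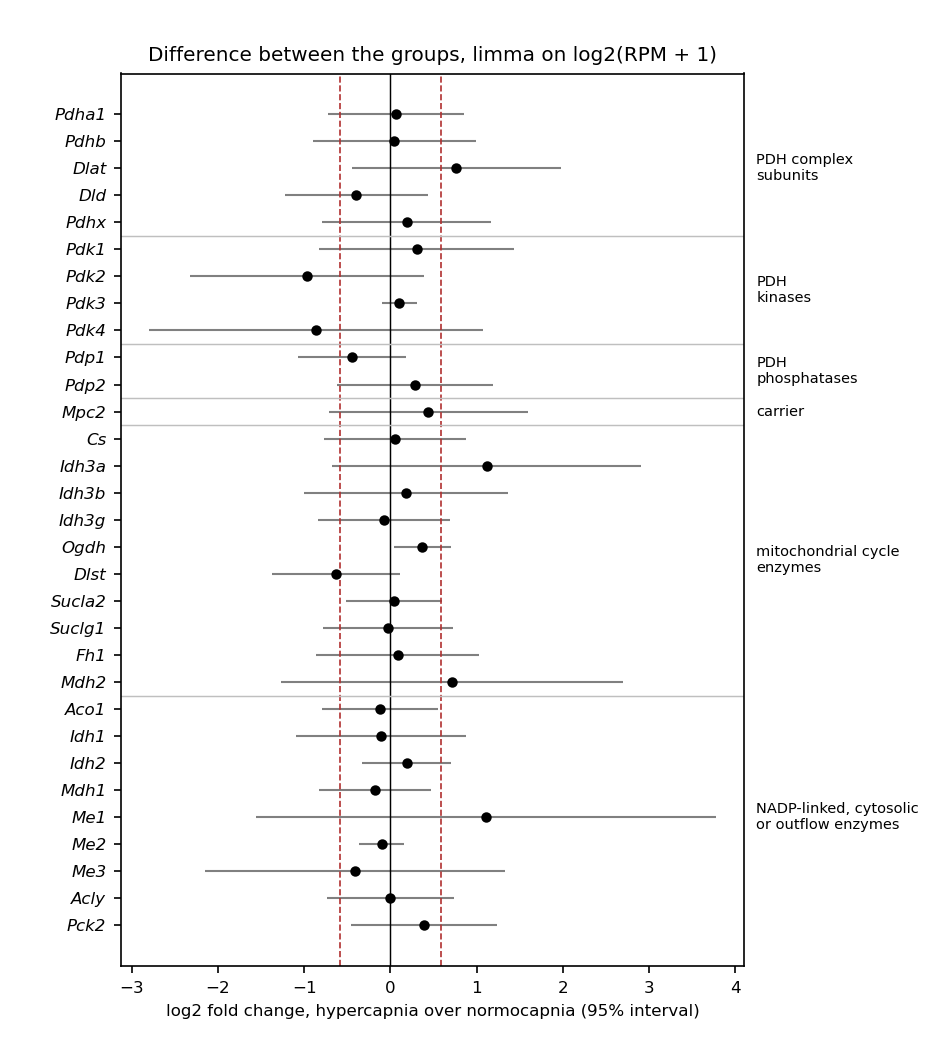
Log2 fold change of each gene (hypercapnia over normocapnia, points) with its 95% interval from limma (lines); dashed lines mark a 1.5-fold difference. The interval lies wholly to the right of 0 for Ogdh alone, from 0.040 to 0.70, and is narrow for Pdk3 and Me2.

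The PDH complex is built from the pyruvate decarboxylase subunits Pdha1 and Pdhb, the acetyltransferase Dlat, the dihydrolipoamide dehydrogenase Dld, which other dehydrogenase complexes share, and the structural protein Pdhx, which anchors Dld. None of these 5 genes was called, and in 4 of them all hypercapnia libraries lay inside the normocapnia range. Dlat, with the smallest p of the subunits, was at 313, 134 and 75.3 RPM in NC1, NC2 and NC3 and at 235, 219.7, 249 and 303 RPM in HC1 to HC4. NC1 was the highest of the 7 libraries, and the 4 hypercapnia libraries sat between it and the other normocapnia libraries. The log2 fold change of Dlat was 0.76 (SE 0.49, 95% interval -0.45 to 1.97, adjusted p = 0.915), 0.28 without NC3 and 1.30 without NC1. Pdha1 had means of 354 ± 158 RPM (SD, n = 3) and 352 ± 62.2 RPM (SD, n = 4), a log2 difference of 0.064 with an interval of -0.72 to 0.85. Pdhb was at 123 ± 68.4 RPM and 117 ± 22.6 RPM, and Pdhx at 19.7 ± 9.74 RPM and 20.4 ± 1.31 RPM. Dld was the only subunit with a negative estimate, -0.40 (SE 0.33), which was -0.10 without NC3 and -0.75 without NC2. Its highest library was NC3, at 349.5 RPM, in which Dlat, Pdhb and Pdhx had their lowest values.

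The 4 PDH kinases, which phosphorylate the complex and inhibit it, did not share a direction. Pdk2, the kinase with the smallest p, was at 66.4, 17.6 and 47.6 RPM in normocapnia and at 12.5, 14.9, 24.4 and 29.7 RPM in hypercapnia. Its 2 lowest libraries were HC1 and HC2, and NC2 fell among the hypercapnia libraries, so the groups overlapped. The difference was -0.96 on the log2 scale (SE 0.54, 95% interval -2.32 to 0.39, adjusted p = 0.915), -0.58 without NC1 and -1.50 without NC2. Pdk4, the kinase that is known to rise with fasting and fatty acid use, was at 76.0, 24.0 and 12.6 RPM in normocapnia. It was at 7.45, 9.85, 27.99 and 25.7 RPM in hypercapnia, with HC1 and HC2 lowest again. Its estimate of -0.86 had an SE of 0.77 and moved with single libraries, to -0.18 without NC1, -0.55 without HC1 and -1.43 without NC3, and it was -2.20 in the 4 libraries with Xist and 1.03 in the other 3. Pdk1, the kinase known as a target of hypoxia-inducible factors, showed the opposite order, with HC1 and HC2 highest (12.9 and 13.2 RPM) and HC3 and HC4 (4.75 and 5.55 RPM) below NC1 and NC2 (7.63 and 8.64 RPM). The estimate for Pdk1 was 0.30 (SE 0.45), and 0.027 without NC3. Pdk3 was the steadiest of the kinases, at 22.2 to 25.4 RPM in normocapnia and 22.8 to 27.6 RPM in hypercapnia, and its difference of 0.10 had an interval of -0.10 to 0.31.

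Of the PDH phosphatases, which reactivate the complex, Pdp1 had the smaller p. Pdp1 was at 16.4, 9.88 and 11.4 RPM in normocapnia and at 10.2, 11.7, 6.69 and 7.31 RPM in hypercapnia. HC3 and HC4 were the lowest libraries, while HC1 and HC2 lay inside the normocapnia range. Its log2 fold change was -0.45 (SE 0.25, 95% interval -1.07 to 0.18, adjusted p = 0.915), and it was -0.25 without NC1. Pdp2 stayed below 6 RPM in every library (0.28, SE 0.36). Mpc2, the carrier subunit in the table, was at 67.5, 52.3 and 18.7 RPM in normocapnia and at 68.4, 57.7, 55.2 and 43.3 RPM in hypercapnia. NC3 was the only library below 43 RPM, and the estimate of 0.44 (SE 0.46) turned to -0.10 without it.

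Among the 10 mitochondrial cycle enzymes in the table, 1 passed an unadjusted p of 0.05. Ogdh, the decarboxylase of the 2-oxoglutarate dehydrogenase complex, was at 145, 111 and 114 RPM in normocapnia and at 149.9, 179, 168 and 140.4 RPM in hypercapnia. Only HC4 lay below the highest normocapnia library, NC1, and the hypercapnia mean was 159 ± 17.4 RPM (SD, n = 4) against 123 ± 19.0 RPM (SD, n = 3). The log2 fold change of Ogdh was 0.37 (SE 0.13, 95% interval 0.040 to 0.70, adjusted p = 0.915), a fold of 1.29 that did not reach the call threshold of 1.5. The estimate was positive under each of the 20 alternatives, at which the gene was never called, and lay between 0.30 (without NC2) and 0.49 (without NC1) when a library was left out. It was smaller on other scales, 0.23 under median-of-ratios scaling, 0.27 in edgeR with a filter and 0.22 in DESeq2, where the unadjusted p was above 0.05, as it also was with the 1 RPM filter, in edgeR without a filter, with the library numbers as a block, with the macrophage score as covariate and without NC2, NC3, HC1, HC2 or HC3. Dlst, the succinyltransferase that works in the same complex, lay on the other side. It was at 215, 189.8 and 399 RPM in normocapnia and at 148, 147, 210.05 and 156 RPM in hypercapnia. NC3 stood well above the other libraries, and HC3 lay between NC1 and NC2. Its difference of -0.63 (SE 0.30, 95% interval -1.37 to 0.11, adjusted p = 0.915) was -0.31 without NC3. Dlst was called lower in edgeR without a filter on low genes, in DESeq2, without NC2, with Xist as covariate, and with the library numbers as a block (background 1.03%), a fit to which HC4 adds nothing since its number has no partner. It was not called by limma on the 7 libraries without a covariate.

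The cycle enzymes with the largest positive estimates were those in which NC3 was far below the rest. Idh3a, the catalytic subunit of the NAD-dependent isocitrate dehydrogenase, was at 158, 60.4 and 18.4 RPM in normocapnia and at 116, 97.8, 135 and 152 RPM in hypercapnia. All hypercapnia libraries lay inside the normocapnia range, and the log2 fold change of 1.12 (SE 0.72) was 0.33 without NC3 and 1.85 without NC1, where it was called. Mdh2, the mitochondrial malate dehydrogenase, was at 142, 160.3 and 18.6 RPM in normocapnia and at 133, 143, 125 and 103 RPM in hypercapnia. Its estimate of 0.71 (SE 0.79) was -0.27 without NC3. In the same library Idh3g, a regulatory subunit of the same isocitrate dehydrogenase, was at 400.07 RPM, close to NC1 at 412 RPM and above the hypercapnia libraries at 259, 269, 343 and 350.3 RPM. The remaining cycle enzymes had differences near 0: Cs, citrate synthase, 0.052 (SE 0.33), Fh1, fumarase, 0.084 (SE 0.38), Sucla2, the ATP-specific subunit of succinyl-CoA ligase, 0.043 (SE 0.22), Suclg1, its shared alpha subunit, -0.028 (SE 0.30), and Idh3b, the other regulatory subunit, 0.18 (SE 0.47).

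The last 9 members work beside the cycle: the NADP-dependent isocitrate dehydrogenases Idh1 and Idh2, the cytosolic aconitase and iron regulatory protein Aco1, the cytosolic malate dehydrogenase Mdh1, the malic enzymes Me1, Me2 and Me3, the ATP citrate lyase Acly, which returns citrate carbon to acetyl-CoA in the cytosol, and the mitochondrial phosphoenolpyruvate carboxykinase Pck2. None was called, with 3 positive and 6 negative estimates. Pck2, with the smallest p of these, was at 6.33, 5.90 and 2.55 RPM in normocapnia and at 4.71, 9.25, 6.94 and 5.42 RPM in hypercapnia, and the groups overlapped (0.39, SE 0.34, adjusted p = 0.915, and 0.054 without NC3). Me1, the cytosolic malic enzyme, was at 48.4, 5.64 and 4.41 RPM in normocapnia and at 12.97, 10.8, 39.5 and 68.7 RPM in hypercapnia. Its libraries thus fell into high values in NC1, HC3 and HC4 and low values in the other 4, and the estimate of 1.11 had an SE of 1.07 and ran from 0.53 without NC3 to 2.12 without NC1. Me2, a mitochondrial malic enzyme, was at 48.9 to 51.2 RPM in all 3 normocapnia libraries and 40.8 to 55.3 RPM in hypercapnia, with a difference of -0.10 and an interval of -0.36 to 0.15. Me3 was listed at 0 in NC3 and HC1, below the 3 reads (0.207 and 0.128 RPM) taken as the floor, and was highest in NC1 at 4.996 RPM. Acly was at 58.8 ± 26.5 RPM in normocapnia and 55.6 ± 7.62 RPM in hypercapnia.

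The spread within normocapnia was larger than that within hypercapnia. The normocapnia range on the log2 scale was the wider one in 27 of 31 members (87.1%, against 78.1% of expressed genes), with a median range of 1.22 against 0.56. In 17 members (54.8%) all 4 hypercapnia libraries lay between the lowest and the highest normocapnia library, against 41.7% of expressed genes. The wider range was thus that of the smaller group, with 3 libraries against 4. NC1 was the highest library in 16 members and NC3 the lowest in 15, against 31.4% and 49.0% of expressed genes. In 5 of 31 members (Dld, Dlst, Aco1, Idh1 and Mdh1) NC3 was instead the highest library, as it was in 15.4% of expressed genes. The calls depended on these libraries. Without NC1, Idh3a, Idh3b and Dlat were called higher, in a comparison that called 6.25% of all genes higher. Without NC2, Dld, Dlst and Pdk2 were called lower, in a comparison that called 2.23% of all genes lower. Without NC3, no member was called, in a comparison that called 2.57% of all genes.

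**Figure D3:**
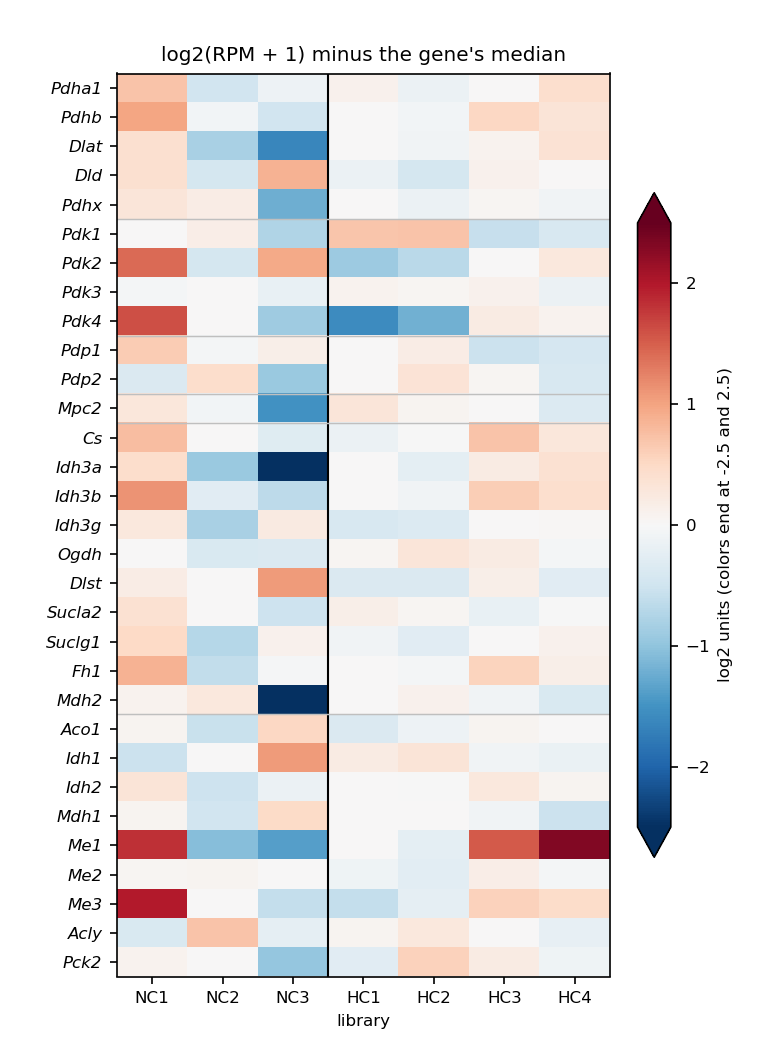
Log2(RPM + 1) of each gene in each library after subtraction of the gene's median over the 7 libraries (red, above; blue, below; colors end at 2.5 log2 units; the black line separates normocapnia from hypercapnia). NC1 is mostly red and NC3 mostly blue, with Pdk2, Dld, Dlst, Aco1, Idh1 and Mdh1 among those red in NC3, and the HC1 and HC2 columns differ from HC3 and HC4 in Pdk1, Pdk4, Me1 and Me3.

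Within hypercapnia the libraries fell into pairs. HC1 and HC2, which express Xist, were both below HC3 and HC4 in 17 members (54.8%, against 44.5% of expressed genes) and both above them in 8 (25.8%, against 23.6%). The 17 included the kinases Pdk2 and Pdk4, all 3 NAD-dependent isocitrate dehydrogenase subunits, Cs and all 3 malic enzymes. The 8 were Pdk1, Pdp1, Mpc2, Sucla2, Mdh2, Idh1, Mdh1 and Acly. HC1 and HC2 also had the lower satellite cell scores (mean log2(RPM + 1) over the 12 markers, 4.59 and 4.53 against 6.16 and 5.66) and the higher macrophage scores (8.70 and 8.62 against 7.99 and 8.09). Endothelial markers summed to 73.4 and 55.7 RPM in HC1 and HC2 against 549 and 418 RPM in HC3 and HC4, neutrophil markers to 114 and 78.3 RPM against 294 and 198 RPM, fibro-adipogenic markers to 1035 and 935 RPM against 1825 and 2230 RPM, and myofiber markers to 475 and 283 RPM against 855 and 1560 RPM. Among the fibro-adipogenic markers, Dcn was at 188 and 169 RPM against 1050 and 1356 RPM, and Pdgfra and Lum had the same direction. Col1a1 and Ly6a overlapped, and Col3a1 ran the other way (144 and 96.7 RPM against 58.6 and 64.5 RPM). The parts of these scores and markers in the split were not tested. With Xist as a covariate in the fit, Dlst was called lower (background 1.94%) and no member higher. In the 4 libraries with Xist alone, 2 against 2, Pdk1 was called higher (background 1.6%), at a lowest adjusted p among members of 0.348. The other 3 libraries hold NC3 as their only normocapnia library, so a comparison within them rests on it.

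Levels of the members were set beside the satellite cell score, which was 7.45, 3.98 and 3.12 in NC1, NC2 and NC3 and 4.53 to 6.16 in hypercapnia. Over the 7 libraries the members' Pearson correlation with it had a median of 0.53, against 0.43 over all expressed genes, and was positive for 26 of 31 (83.9%, against 74.4%). The exact two-sided permutation test was run for all 12504 expressed genes and adjusted over them. Among the members, 4 Pearson correlations had an adjusted p below 0.05 (Idh3b, Pdhb, Cs and Me3), against 9.29% of expressed genes, and 5 Spearman correlations (Idh3b, Pdhb, Dlat, Idh3a and Idh2), against 7.35%. At an unadjusted p below 0.05 the Pearson count was 12 of 31 (38.7%, against 28.5%). Idh3b had the closest relation: it was at 143, 53.2 and 40.7 RPM in NC1 to NC3 and at 64.9, 61.3, 100.4 and 87.1 RPM in HC1 to HC4, and its libraries stood in the same order as the score. Its Pearson r was 0.999 and its Spearman rho 1.0 (exact permutation p = 0.000198 and 0.000397, adjusted 0.0187 and 0.0194), and r was 0.999 again without NC1 and HC3, the libraries farthest from the median score. The value of 0.000198 is the smallest that the 7 libraries can give for r. Pdhb, at 201, 96.2 and 72.5 RPM in normocapnia and at 101, 96.7, 145 and 126 RPM in hypercapnia, followed the same order (r = 0.993, rho = 1.0, exact permutation p = 0.000198 and 0.000397, adjusted 0.0187 and 0.0194), with r = 0.975 without these 2 libraries. Cs had r = 0.943 and rho = 0.857 (exact permutation p = 0.00159 and 0.0238, adjusted 0.0303 and 0.124), and 0.882 without them. Me3 had r = 0.914 and rho = 0.811 (exact permutation p = 0.00397 and 0.0381, adjusted 0.0458 and 0.174), and 0.714 without them. Dlat, Idh3a and Idh2 each had rho = 0.964 (exact permutation p = 0.00278, adjusted 0.0378), with r = 0.842, 0.819 and 0.798 (exact permutation p = 0.0149, 0.0190 and 0.0331, adjusted 0.0861, 0.0987 and 0.135), and r = 0.958, 0.936 and 0.537 without the same libraries. Idh1 had the opposite sign, with r = -0.87 and rho = -0.857 (exact permutation p = 0.0107 and 0.0238, adjusted 0.0722 and 0.124), and -0.83 without the same libraries. The sets with and without Xist hold 4 and 3 libraries, too few for a correlation within each. The score and the genes share each library's depth and composition.

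The macrophage scores fell into a low set (7.68 in NC1, 7.76 in NC3, 7.99 in HC3 and 8.09 in HC4) and a high set (8.60 in NC2, 8.70 in HC1 and 8.62 in HC2), so no correlation coefficient with this score is given. By summed level the order was another: NC3 had the highest sum of the macrophage markers, 35162 RPM, and the sums of HC3 and HC4, 20310 and 20640 RPM, were close to that of HC2, 21783 RPM. Lyz2 alone gave 29108 RPM of the NC3 sum, against 8354 to 16728 RPM in the other libraries. The score weighs each marker alike, also those near the floor such as C1qa, which was at most 0.452 RPM. Cd14, C1qb, C1qc and Mrc1 were each higher throughout the high set, and the other markers overlapped between the sets. Pdk2 was at 24.4 to 66.4 RPM in the low set and at 12.5 to 17.6 RPM in the high set. Idh3g was at 343 to 412 RPM in the low set and at 196, 259 and 269 RPM in NC2, HC1 and HC2. These 2 genes were picked after their values were seen, as those that ran most strongly against the score. The same exact permutation test of the Pearson correlation over the 7 libraries takes these split scores, and so has the same limit. In it no member passed adjustment, and neither did any of the 12504 expressed genes. An unadjusted p below 0.05 was found for 7 of 31 members (22.6%), against 18.2% of expressed genes. Of these 7, 2 (Acly and Pdp2) were higher with the score. Acly was at 41.2 to 53.98 RPM in the low set and at 56.7 to 89.2 RPM in the high set. Pdk1, which is not among the 7, was at 4.13 to 7.63 RPM in the low set and 8.64 to 13.2 RPM in the high set. Each set holds libraries of both groups. By summed marker level, in which Lyz2 weighs most, these orders did not hold, since NC3, with the highest sum, had 47.6 RPM of Pdk2 and 400.07 RPM of Idh3g. With the macrophage score as a covariate no member was called in either direction (background 2.67%). With the satellite cell score as a covariate Dlat was called higher (background 2.52%) and Me3 and Pdk4 lower (background 1.86%), at a lowest adjusted p among members of 0.284.

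**Figure D4:**
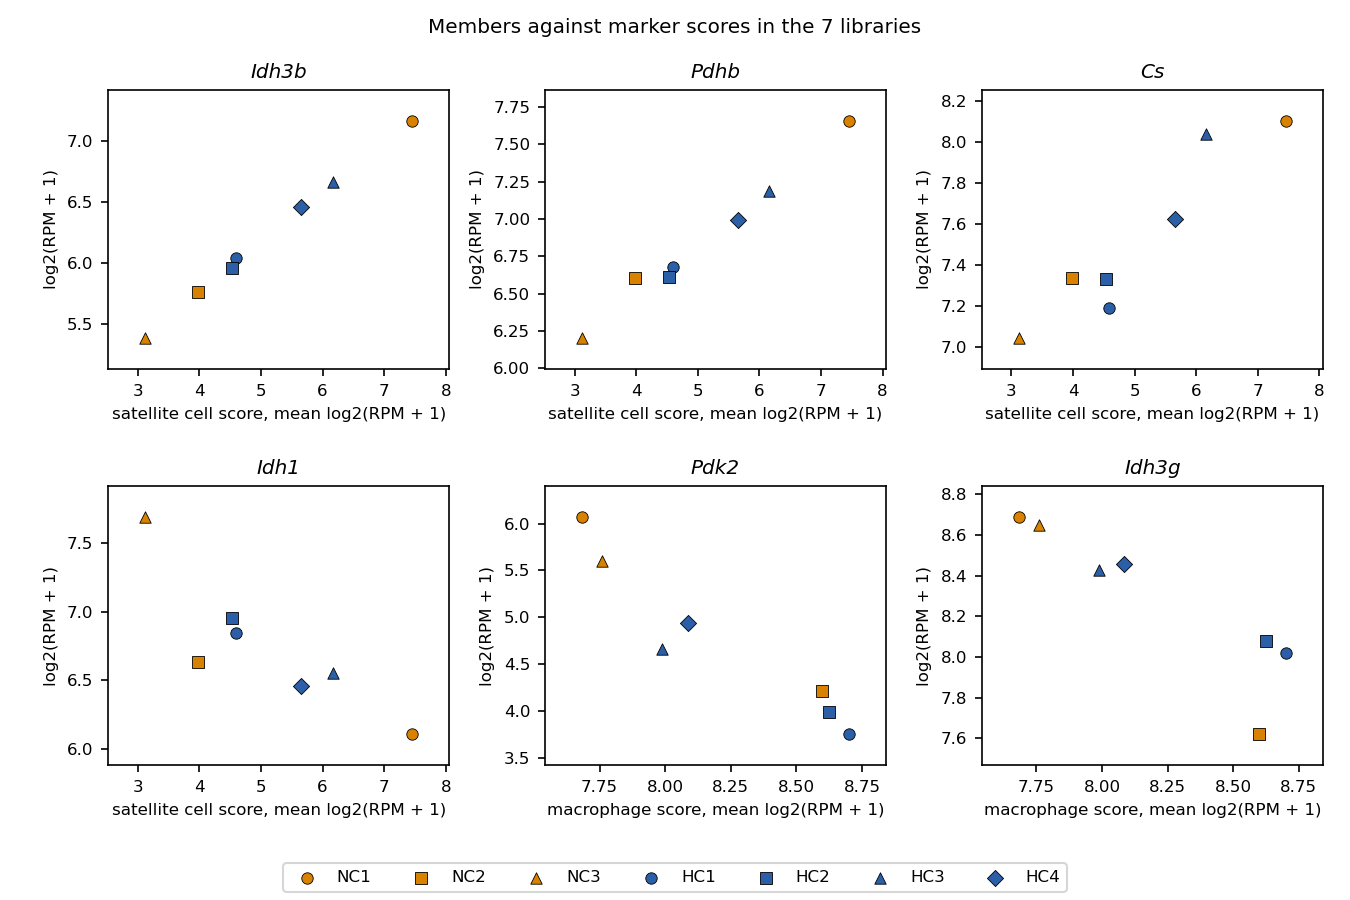
Log2(RPM + 1) of 6 genes against the satellite cell score (Idh3b, Pdhb, Cs, Idh1) or the macrophage score (Pdk2, Idh3g) in the 7 libraries (orange, normocapnia; blue, hypercapnia; the marker shape gives the library). Idh3b and Pdhb climb with the satellite cell score in the same order of libraries, Idh1 runs the other way, and for the macrophage score NC2, HC1 and HC2 form a separate set on the right.

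Other genes of the pathway were taken from 5 lists, of which 46 of 49 symbols were found. Of these, 3 were called higher in hypercapnia and 0 lower, against 1.43% and 1.14% of all genes and 2.66% and 2.1% of expressed genes. Acss1, the mitochondrial enzyme that makes acetyl-CoA from acetate, was at 9.68, 7.23 and 5.99 RPM in normocapnia and at 22.4, 28.5, 13.8 and 14.9 RPM in hypercapnia. The groups did not overlap, and HC1 and HC2 were the highest (1.24, SE 0.30, adjusted p = 0.809). Pparg, a nuclear receptor of lipid metabolism, was at 17.3, 16.5 and 12.4 RPM against 25.9, 31.4, 31.4 and 25.3 RPM, again without overlap (0.85, SE 0.15, adjusted p = 0.650). Hif1a, the oxygen-regulated subunit of hypoxia-inducible factor, was at 248, 129.8 and 128 RPM against 269, 213, 381 and 499 RPM. HC2 lay below NC1, and the call (1.01, SE 0.39, adjusted p = 0.915) was lost when NC2, NC3, HC1, HC3 or HC4 was left out, with estimates of 0.80 to 1.10. Ppard, a related receptor, had groups that did not overlap but missed the threshold (0.63, SE 0.27, adjusted p = 0.915, and 0.31 without NC3), and was called higher without NC2 and with Xist as covariate. Glud1, the glutamate dehydrogenase that feeds glutamate into the cycle, was at 202, 241 and 637 RPM in normocapnia, above all 4 hypercapnia libraries at 137 to 199.8 RPM (-0.96, SE 0.43, adjusted p = 0.915). Glud1 was called lower in edgeR with and without a filter, in DESeq2, without NC1, with Xist as covariate and in the 4 libraries with Xist, and its estimate was -0.45 without NC3. Groups were thus apart in the higher direction for 3 and in the lower direction for 1 of these 46 genes, against 4.09% and 3.63% of expressed genes.

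By list, 0 of 15 further cycle genes were called (smallest p for the succinate dehydrogenase assembly factor Sdhaf4, 0.35, SE 0.21), 0 of 2 genes of lipoic acid synthesis (Lipt2, -0.16, SE 0.13), 0 of 9 carriers and shuttles (the dicarboxylate carrier Slc25a10, 0.34, SE 0.21), 1 of 10 genes of lactate, acetate and glutamine entry (Acss1) and 2 of 10 regulators known to act on PDH kinase genes (Pparg and Hif1a), to be read against the same shares of all genes. The genes of these lists had a median log2 fold change of 0.18, with 31 positive and 15 negative estimates, against a median of 0.16 over all expressed genes.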

How the data were processed

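RNA of the sorted cells was sequenced with the Ion AmpliSeq Transcriptome Mouse kit, and the aligner, genome build and counting were not given in the sources used here. The deposited table holds RPM per gene in the 7 libraries, scaled by the authors to 1000000 reads per library, and the submitters' processing notes name the Transcriptome Analysis Console. All values were whole multiples of the RPM worth of 1 read (tolerance 0.05 reads), so reads were recovered (14527445 to 23388710 per library). Groups were taken from the treatment label. The comparison was limma 3.58.1 (R 4.3.3) on log2(RPM + 1) over 23930 genes without a filter. A fold change on this scale understates that of low genes. A gene was called at an unadjusted p below 0.05 and a fold above 1.5, and Benjamini-Hochberg adjustment ran over all genes. edgeR 4.0.16 and DESeq2 1.42.0 on the recovered reads were alternatives, as were other pseudocounts (0.1 and 5 RPM), a filter at a mean of 1 RPM, other scalings, limma-trend, covariates and leaving out each library. The Xist alternatives, and all alternatives for the other pathway genes, were chosen after seeing the data. Correlations used exact permutations, adjusted over all 12504 expressed genes (mean of 1 RPM upwards; scipy 1.17.1). The scripts were tested on simulated data.

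The members and lists were chosen with earlier results of these data known. Values in every library were given for the member with the smallest p in each role, for members called or not overlapping in the 7-library comparison (there were none), and for most members whose values the text turns on, the latter chosen after their values were seen. Markers were those of satellite cells, macrophages, neutrophils, lymphocytes, endothelial and fibro-adipogenic cells, myofibers, red blood cells and proliferation. Same-numbered libraries of the groups had correlations of their deviations of -0.35, 0.50 and -0.04. These values cannot show whether such libraries were paired, since the libraries also differ in Xist and in marker levels. The floor was 3 reads and covers counting error only.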

Additional observations from a re-analysis of the deposited data

How the results depend on the processing

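With 3 and 4 libraries, the 95% interval of the difference lay within 2-fold for 13 of 31 members and reached past it for the other 18. No member was called under other pseudocounts, a filter at 1 RPM, median-of-ratios scaling, quantile normalization, limma-trend or the macrophage score as covariate, and the sign stayed the same under 20 alternatives in 11 members. The comparison of the 4 libraries with Xist is not among these 20, and in it Me1, 1 of the 11, turned to -0.50. Members called higher numbered 1 with the satellite cell score as covariate, 1 in the 4 libraries with Xist, and 0 to 3 when 1 library was left out (3 without NC1). Members called lower numbered 1 in edgeR with a filter, 2 in edgeR without a filter, 2 in DESeq2, 2 with the satellite cell score, 1 with Xist as covariate, and 0 to 3 when 1 library was left out (3 without NC2). With the replicate number as a block, which leaves HC4 without a partner and so out of the estimate, 1 member (Dlst) was called lower and 598 genes in all, against 477 in the same 6 libraries without the block and 615 in all 7. The median of the members ran from -0.04 to 0.35 when 1 library was left out, highest without NC1. Over all genes, 1049 were called in edgeR without a filter, 1304 in DESeq2, 1048 with the satellite cell score, 1210 with Xist as covariate, 1015 in the 4 libraries with Xist, 1990 without NC1, 1205 without NC2, 385 without HC1 and 376 without HC2. Other pathway genes called numbered 5 in edgeR with and without a filter, in DESeq2, with the satellite cell score, with Xist as covariate and in the 4 libraries with Xist, and 2 to 9 when 1 library was left out (9 without NC1, 8 without NC2). The call of Hif1a was also lost with the block (0.80), with Xist as covariate (0.95) and in the 4 libraries with Xist (0.41), and that of Acss1 under quantile normalization (0.97).

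The log2 fold change changed sign under median-of-ratios scaling for Pdha1 (-0.079), Cs (-0.090), Fh1 (-0.057), Pdk3 (-0.037), Pdhb (-0.095) and Sucla2 (-0.096), and under quantile normalization for Pdhx (-0.038), Pdp2 (-0.16), Pdk3 (-0.038), Pdk1 (-0.078) and Sucla2 (-0.072). On recovered reads it did so in edgeR with a filter for Pdha1 (-0.073), Cs (-0.039), Fh1 (-0.088), Pdk3 (-0.012), Pdhb (-0.084) and Sucla2 (-0.042), in edgeR without a filter for Pdha1 (-0.064), Cs (-0.036), Fh1 (-0.075), Pdhb (-0.087) and Sucla2 (-0.035), and in DESeq2 for Pdha1 (-0.12), Cs (-0.080), Fh1 (-0.13), Idh3b (-0.032), Pdk3 (-0.052), Pdhb (-0.13) and Sucla2 (-0.082). In limma it did so with the replicate block for Pdha1 (-0.046) and Acly (0.078), with the satellite cell score for Pdha1 (-0.019), Acly (0.047), Cs (-0.052), Fh1 (-0.023), Idh1 (0.0066), Pdhb (-0.080) and Sucla2 (-0.0044), with the macrophage score for Aco1 (0.13), Idh3g (0.24), Pdp2 (-0.010), Pdk1 (-0.077), Suclg1 (0.25) and Sucla2 (-0.010), with Xist as covariate for Acly (0.053), and with a pseudocount of 0.1 RPM for Acly (0.00020). Leaving out 1 library changed the sign for Pdha1 (-0.20 to 0.40), Aco1 (-0.40 to 0.14), Acly (-0.21 to 0.34), Cs (-0.17 to 0.36), Fh1 (-0.26 to 0.48), Idh3b (-0.18 to 0.71), Idh2 (-0.012 to 0.41), Idh1 (-0.46 to 0.33), Idh3g (-0.42 to 0.11), Mdh2 (-0.27 to 1.25), Mdh1 (-0.42 to 0.046), Me3 (-0.94 to 0.35), Mpc2 (-0.099 to 0.80), Pdhx (-0.30 to 0.46), Pdp2 (-0.043 to 0.65), Pdhb (-0.26 to 0.47), Suclg1 (-0.37 to 0.24) and Sucla2 (-0.19 to 0.26). The causes were not tested.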
